A study of Mus musculus with 15 samples.

Results

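Immediate-early genes are described here in bulk RNA from mouse pancreatic islets. They are Fos, Fosb, Jun, Junb and Atf3, which encode subunits of the AP-1 family of transcription factors, Egr1 and Egr2, which encode zinc finger transcription factors, Nr4a1, which encodes an orphan nuclear receptor, Ier2, which encodes a nuclear protein of the immediate-early response, and Dusp1, which encodes a phosphatase that switches off MAP kinases. They were taken by symbol from the deposited count table. All 10 were found among its 24060 entries, and all 10 were among the 15460 genes that passed the filter on low counts. In GENCODE M21 (GRCm38) all 10 are protein-coding genes. Fos spans chr12:85473890-85477273 and Egr2 chr10:67535475-67542188, both on the plus strand, and Junb spans chr8:84974484-84978718 on the minus strand.

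Immediate-early genes are transcribed within minutes of a stimulus, without new protein synthesis, by factors that already sit at their promoters. Serum response factor, its partners phosphorylated by MAP kinases, and CREB are the best known of these factors, and most of the induced mRNAs are short-lived. In beta cells, glucose, membrane depolarisation and cAMP induce several of them, and in most tissues handling and enzymatic digestion induce them as well.

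RNA was sequenced from islets of FVB/NJ mice aged 9 to 10 weeks, in 5 groups of 3 libraries. The hIAPP_hCAST mice carried human IAPP and human CAST transgenes, the hIAPP mice human IAPP alone, the rIAPP mice a rodent IAPP transgene, the hCAST mice human CAST alone, and the WT mice no transgene. IAPP is islet amyloid polypeptide, a hormone secreted with insulin, whose human form can aggregate into amyloid and whose rodent form does not, and CAST encodes calpastatin, an inhibitor of calpain proteases. Each transgene was driven by an insulin promoter, so its expression is directed to beta cells, while the RNA came from whole islets. The line, litter and islet isolation of each library, and whether animals were pooled, are not given in the sources used here. The p-values therefore measure the spread between these libraries, which may be partly technical. The numbers in the titles of WT and hCAST libraries lie in one range, those of hIAPP and hIAPP_hCAST in another and those of rIAPP apart from both, so that in every pairwise comparison except hCAST with WT and hIAPP_hCAST with hIAPP the ranges and the IAPP transgenes cannot be told apart.

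The libraries held 28287011 to 40191501 counts. In WT 2, WT 3 and rIAPP 2 the genes Rn45s, Lars2 and Mir6236, which collect ribosomal reads, held 94.3%, 68.9% and 67.7% of them, which left 1667190, 8796210 and 9510502 other counts, against 30199765 to 40062153 in the remaining 12 libraries. Markers of beta cells, Ins1, Ins2 and 8 others, summed to 77870 to 167500 CPM (counts relative to the TMM-scaled library size) over the 15 libraries, and only in rIAPP 2 did another list of cell type markers sum higher, the 10 acinar markers at 85310 CPM. The haemoglobin genes Hba-a1, Hba-a2, Hbb-bs and Hbb-bt were at 0 counts in all 15. Reads of the human transgenes were not analysed here.

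The promoters of members that carried the comparisons below, and of Dusp1, whose level differed least between rIAPP and WT, are given as the 200 bases that lie 250 to 51 bases before the annotated start (RefSeq, GRCm38.p6, coding strand, 5′ to 3′). Capitals mark TGACG, the half-site of the cAMP response element read on either strand, and in Egr2 also the CArG box, the site of serum response factor. Fos lies at chr12:85473640-85473839 on the plus strand, Junb at chr8:84978799-84978998 on the minus strand, Egr2 at chr10:67537619-67537818 on the plus strand, as 1 of 5 windows of that gene, and Dusp1 at chr17:26508523-26508722 on the minus strand.
Fos: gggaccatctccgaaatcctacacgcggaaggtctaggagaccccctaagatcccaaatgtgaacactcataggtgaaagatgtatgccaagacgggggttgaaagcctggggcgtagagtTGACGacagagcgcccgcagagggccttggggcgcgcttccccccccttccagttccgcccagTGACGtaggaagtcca
Junb: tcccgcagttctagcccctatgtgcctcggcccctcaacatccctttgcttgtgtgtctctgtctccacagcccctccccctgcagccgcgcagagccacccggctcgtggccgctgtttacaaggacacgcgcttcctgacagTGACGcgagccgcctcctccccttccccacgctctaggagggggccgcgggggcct
Egr2: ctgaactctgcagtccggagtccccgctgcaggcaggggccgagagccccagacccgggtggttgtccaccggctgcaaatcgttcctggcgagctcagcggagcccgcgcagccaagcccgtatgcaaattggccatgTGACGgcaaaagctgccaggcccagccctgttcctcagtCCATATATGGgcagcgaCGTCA
Dusp1: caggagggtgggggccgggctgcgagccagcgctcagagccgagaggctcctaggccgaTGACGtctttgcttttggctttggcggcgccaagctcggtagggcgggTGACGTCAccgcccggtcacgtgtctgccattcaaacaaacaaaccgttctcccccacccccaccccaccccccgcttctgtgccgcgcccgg
Windows of the same length were searched for 8 of the 10 genes. Egr1 was left out of this search, so its promoter is not described, and Ier2 had no window. TGACG, on either strand, stood in those of 6 genes, Fos, Fosb, Junb, Egr2, Nr4a1 and Dusp1, and in those of 14.3% of all 27025 symbols with a promoter window. The full element TGACGTCA, which contains the half-site, was found in Dusp1 alone of the 8, against 0.955% of all symbols. The CArG box was found in Egr2 alone, against 1.27% of all symbols, and TGANTCA, the site that AP-1 itself binds, in 0 of the 8, against 6.51%. These are matches of letters in a short window and do not show that a factor was bound.

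Fos mRNA was the most abundant of the 10, and Egr2 mRNA the least. Per kilobase of the gene length implied by the deposited FPKM, the mean level over the 15 libraries was 87.9 CPM per kb for Fos, 61.0 for Junb and 31.9 for Jun. Ier2 had 17.1 CPM per kb, Dusp1 13.3, Egr1 11, Fosb 8.83 and Nr4a1 8.40. Atf3 had 2.37 CPM per kb and Egr2 0.420, so that the genes of the group span a wide range and the low ones rest on few reads. Egr2 was counted with 264 reads over the hIAPP_hCAST libraries, 313 over hIAPP, 173 over rIAPP, 107 over hCAST and 25 over WT. In WT 2 it had 0 counts, which allows up to 3 counts or 1.31 CPM in that shallow library, more than the other WT libraries measured, and such floors cover counting error only.

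The mean level was highest in hIAPP islets for 9 of the 10 genes and in rIAPP islets for Nr4a1. It was lowest in WT islets for 7 genes and in hCAST islets for Egr1, Nr4a1 and Dusp1. For Fos, Jun, Junb, Egr2 and Ier2 the order from high to low was hIAPP, hIAPP_hCAST, rIAPP, hCAST and WT. Fosb and Atf3 had the order hIAPP, rIAPP, hIAPP_hCAST, hCAST and WT. Neighbouring groups in these orders overlapped in 38 of 40 cases. The exceptions were Junb, where every hIAPP_hCAST library lay above every rIAPP library, and Egr2, where every rIAPP library lay above every hCAST library. A test of any difference among the 5 groups was passed by 2 of the 10 genes, Egr2 (edgeR adjusted p = 0.00313) and Junb (adjusted p = 0.044), beside 26.3% of all tested genes. DESeq2 called 5 of the 10, beside 4874 of all 15460 tested genes. In edgeR 5 had an unadjusted p under 0.05. The largest of these in edgeR, 0.0391 for Fos, ranked only 5510 among the 15460, so such values were common over all genes.

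**Figure D1:**
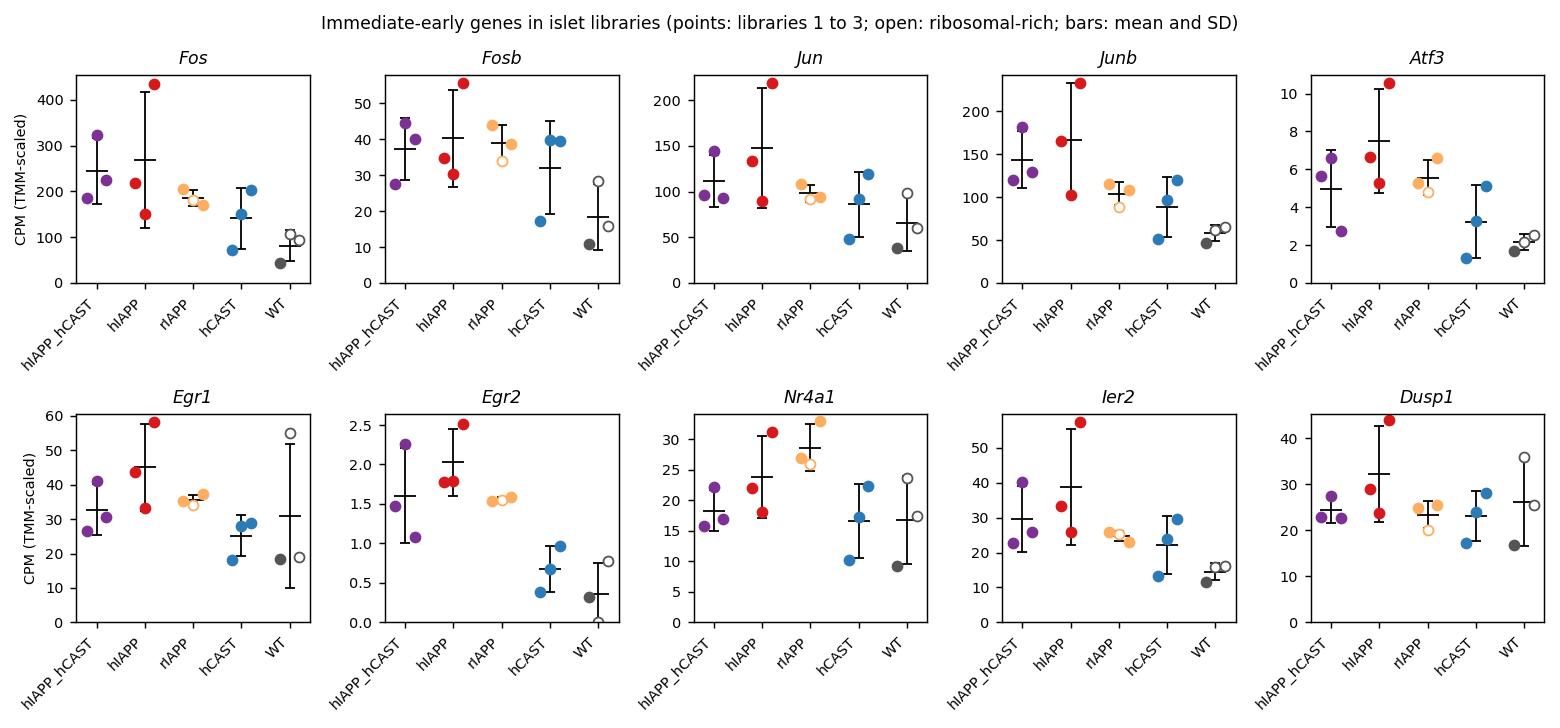
Level of each immediate-early gene (y axis, TMM-scaled CPM from 0) in the 5 groups (x axis). Points are libraries 1 to 3 from left to right, open points the libraries with over 50% ribosomal counts, and bars the mean and SD of n = 3. The hIAPP 3 library is the highest point of 9 of the 10 genes. The WT points of Fos, Fosb, Junb, Atf3, Egr2 and Ier2 lie below all hIAPP and rIAPP points.

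The comparison of hIAPP with WT asks how islet RNA differs once beta cells express human IAPP. Of the 10 immediate-early genes, 5 rose in hIAPP islets, 0 fell and 5 did not pass the test, where 6.27% of all 15460 tested genes rose and 5.59% fell. The genes that rose were Egr2, Atf3, Fos, Junb and Ier2, by 2.81-fold to 4.70-fold. The median log2 fold change of the 10 was 1.45, beside 0.017 over all tested genes. In 6 of the 10 every hIAPP library lay above every WT library, which 17.9% of all tested genes showed.

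Among the AP-1 subunits, Fos, which forms stable dimers with Jun proteins, was at 218.3, 150.4 and 435.5 CPM in hIAPP 1, 2 and 3 and at 43.65, 107.2 and 92.98 CPM in WT 1, 2 and 3. All hIAPP values were above all WT values, and hIAPP 3 and WT 1 stood at the far ends. Fos rose by 1.79 ± 0.512 on the log2 scale (SE; 95% interval 0.65 to 2.92; edgeR adjusted p = 0.0483). Junb, a Jun paralog that often opposes Jun in growth control, was at 164.7, 102.3 and 233.2 CPM in hIAPP and at 47.02, 61.72 and 65.22 CPM in WT. The groups did not overlap, and the WT libraries were close to each other. Junb rose by 1.55 ± 0.365 on the log2 scale (95% interval 0.74 to 2.35; adjusted p = 0.0223). Junb shares its locus with Prdx2 on the opposite strand, and the labels do not state the strand setting of the counting. Atf3, a stress-induced factor that dimerises with Jun proteins, was at 6.63, 5.25 and 10.5 CPM in hIAPP and at 1.70, 2.19 and 2.54 CPM in WT. The lowest hIAPP library was above the highest WT library, though the WT values of Atf3 rest on 79, 5 and 33 counts in WT 1, 2 and 3. Atf3 rose by 1.89 ± 0.541 on the log2 scale (95% interval 0.72 to 3.07; adjusted p = 0.0416). Fosb, a Fos paralog whose variants are known for their persistence, was at 34.7, 30.3 and 55.6 CPM in hIAPP and at 10.8, 28.5 and 15.7 CPM in WT, without overlap, and missed the threshold (log2 fold change 1.41 ± 0.426, adjusted p = 0.0561). Jun, which pairs with Fos proteins and with itself, was at 133.6, 89.8 and 218.8 CPM in hIAPP and at 38.3, 98.9 and 60.1 CPM in WT. Its groups overlapped through WT 2 and hIAPP 2 (log2 fold change 1.29 ± 0.450, adjusted p = 0.091).

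Of the zinc finger and nuclear receptor factors, 1 of 3 rose in hIAPP islets. Egr2, known from hindbrain patterning and myelination, was at 1.78, 1.79 and 2.52 CPM in hIAPP and at 0.323, 0 and 0.771 CPM in WT. Every hIAPP library was above every WT library and above the 1.31 CPM that the count of 0 in WT 2 allows. Egr2 rose by 2.23 ± 0.464 on the log2 scale (95% interval 1.25 to 3.21; adjusted p = 0.0061), the smallest p of the 10 in this comparison. Egr1, the founding member of the EGR family and a target of glucose signalling in beta cells, was at 43.7, 33.2 and 58.2 CPM in hIAPP and at 18.4, 55.2 and 19.0 CPM in WT. A single WT library, WT 2, stood among the hIAPP values, and Egr1 did not pass the test (log2 fold change 0.84 ± 0.379, adjusted p = 0.177). Nr4a1, also called Nur77, was at 22.0, 18.1 and 31.2 CPM in hIAPP and at 9.27, 23.6 and 17.4 CPM in WT, with overlap (log2 fold change 0.72 ± 0.368, adjusted p = 0.23). Ier2 was at 33.3, 25.8 and 57.5 CPM in hIAPP and at 11.7, 15.8 and 16.0 CPM in WT. Its groups did not overlap, and it rose by 1.49 ± 0.390 on the log2 scale (95% interval 0.63 to 2.34; adjusted p = 0.0329). Dusp1 was at 29.0, 23.8 and 44.0 CPM in hIAPP and at 16.8, 35.9 and 25.5 CPM in WT, with overlap, and had the smallest difference of the 10 (log2 fold change 0.46 ± 0.287, adjusted p = 0.327). Dusp1 shares its locus with Ergic1 on the opposite strand.

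Of the 6 fits that leave out 1 library, each with 1 sample fewer in a group, Fos, Atf3 and Ier2 kept their call in 1 and Junb in 2. Over these fits the log2 fold change ran from 1.25 to 2.07 for Fos, 1.23 to 1.80 for Junb, 1.56 to 2.09 for Atf3 and 1.09 to 1.71 for Ier2, lowest without hIAPP 3 for each of the 4. Over all 14 alternatives the adjusted p ran from 0.00454 to 0.302 for Fos, 0.000261 to 0.171 for Junb, 0.00412 to 0.215 for Atf3 and 0.00184 to 0.195 for Ier2. In edgeR, 5 of the 10 genes were called with all libraries and again without hIAPP 2, 2 without hIAPP 1, 1 without hIAPP 3, 0 without WT 1, 3 without WT 2 and 1 without WT 3. Without the 3 ribosomal-rich libraries, which leaves WT 1 as the only WT library, Egr2 alone was called (log2 fold change 2.64, adjusted p = 0.0436). The Egr2 call was kept under 13 of 14 alternatives, with adjusted p from 0.00013 to 0.0933, and ended without WT 1 (log2 fold change 1.68, adjusted p = 0.0933). DESeq2 called 7 of the 10 higher, Fosb and Jun in addition, beside 1128 of all 15460 tested genes. Leaving out WT 2, where ribosomal-rich genes held 94.3% of counts, ended the edgeR calls of Fos, Junb, Atf3 and Ier2. In that fit Egr2 stayed called. Fosb (log2 fold change 1.64, edgeR adjusted p = 0.0443) and Egr1 (1.27, adjusted p = 0.0181) were newly called there.

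Other cell types differed between these groups as well. The summed level of the macrophage markers, 9 of 10 listed being in the table, was 288.1 to 410.5 CPM in hIAPP and 72.7 to 105.4 CPM in WT. That of 8 stellate and pericyte markers was 833.3 to 1023 CPM in hIAPP and 278.4 to 433.4 CPM in WT, and that of 10 acinar markers was 38710 to 85010 CPM in hIAPP and 10170 to 46010 CPM in WT. Beta cell markers summed to 96270 to 106400 CPM in hIAPP and 137400 to 167500 CPM in WT. In bulk RNA, fewer cells of a type and less RNA per cell cannot be told apart. With the acinar share as a covariate, Egr2 alone of the 10 was called (log2 fold change 2.08, adjusted p = 0.00707). The part of the other cell types in the members' differences was not tested.

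**Figure D2:**
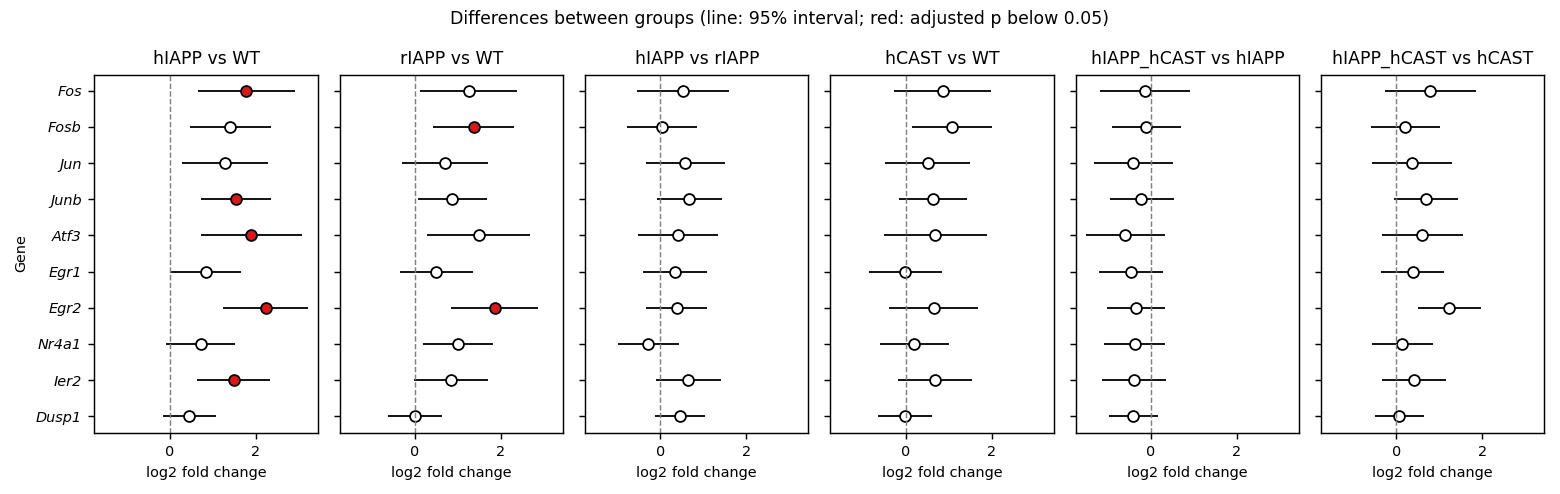
Log2 fold change of each immediate-early gene (x axis, with its 95% interval as a line) in the 6 pairwise comparisons, genes down the y axis. Filled red points passed an edgeR adjusted p of 0.05: 5 genes in hIAPP against WT, 2 in rIAPP against WT and 0 in the other panels.

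Some related genes rose as well, beside 6.27% of all tested genes that rose and 5.59% that fell. Of 8 other tested AP-1 and small Maf subunits, 2 rose in hIAPP islets, Jund (138 ± 20.4 CPM in hIAPP and 98.7 ± 4.39 CPM in WT, SD, n = 3; adjusted p = 0.00895) and Fosl2 (15.9 ± 0.924 CPM in hIAPP and 10.7 ± 3.27 CPM in WT; adjusted p = 0.0112), 0 fell and 6 did not pass. Of 5 other EGR, NR4A and NAB genes, 1 rose, Nab2, a corepressor of EGR proteins (log2 fold change 0.42 ± 0.126, adjusted p = 0.0384). Of 14 other immediate-early transcription factors, 5 rose and 0 fell, among them Klf6 (log2 fold change 0.77 ± 0.163, adjusted p = 0.00872) and Cebpd (1.41 ± 0.343, adjusted p = 0.0224). Of 29 other immediate-early signalling and RNA-decay genes, 5 rose and 2 fell, and those that rose included Socs3, a feedback inhibitor of cytokine receptors (39.7 ± 16.5 CPM in hIAPP and 12 ± 2.86 CPM in WT; log2 fold change 1.85 ± 0.401, adjusted p = 0.0147). Their medians were 0.19, 0.42, 0.59 and 0.39 on the log2 scale, each below that of the 10. Of the 6 fits that leave out 1 library, Nab2 kept its call in 1 and Cebpd in 3. Fosl2 kept it in 4, Klf6 and Socs3 in 5, and Jund in 6.

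Among genes that restrain or feed the pathway, calls ran in both directions, beside 6.27% of all tested genes that rose and 5.59% that fell. Of 15 tested MAP kinase phosphatases and feedback inhibitors, 1 rose, Dusp8 (log2 fold change 0.78 ± 0.163, adjusted p = 0.00622), and 1 fell, Dusp10, a phosphatase of JNK and p38, by 0.72 ± 0.125 on the log2 scale (adjusted p = 0.00225). Of 23 upstream kinases and factors, 0 rose and 4 fell, among them Braf, Creb1 and Crtc3, by 0.35 to 0.41 on the log2 scale. Of the 6 fits that leave out 1 library, Braf kept its call in 6, Creb1 in 2 and Crtc3 in 3. Of 12 heat shock genes known from tissue dissociation, 0 rose and 4 fell, Hspa8, Hsp90aa1, Dnaja1 and Hsph1, with a list median of −0.19. In the same 6 fits Hspa8 kept its call in 3, Hsp90aa1 in 2, and Dnaja1 and Hsph1 in 1. Of the 8 heat shock genes that did not pass, the inducible Hspa1a averaged 42.5 CPM in hIAPP and 18.2 CPM in WT. Its near-identical copy Hspa1b averaged 65.4 CPM in hIAPP and 26.1 CPM in WT. The adjusted p was 0.245 for Hspa1a, at a log2 fold change of 1.37, and 0.194 for Hspa1b, at 1.45. Of the 21 called genes that the naming rule picks from these lists, 5 kept their call whichever library was left out, and 2 kept it without the ribosomal-rich libraries.

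Setting rIAPP against WT asks about a transgene of the form that does not aggregate. Of the 10 genes, 2 rose in rIAPP islets, Egr2 and Fosb, 0 fell and 8 did not pass, where 10.7% of all tested genes rose and 12.6% fell. The median log2 fold change of the 10 was 0.93, beside 0.011 over all genes. In 7 of the 10 every rIAPP library lay above every WT library, which 21.7% of all tested genes showed. The WT libraries are those of the comparison with hIAPP, so the 2 sets of values are not independent.

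Egr2 was at 1.53, 1.55 and 1.59 CPM in rIAPP and at 0.323, 0 and 0.771 CPM in WT. The rIAPP libraries were almost equal and lay above the WT values. Egr2 rose by 1.85 ± 0.478 on the log2 scale (95% interval 0.84 to 2.86; adjusted p = 0.00981). Fosb was at 44.0, 33.9 and 38.5 CPM in rIAPP and at 10.8, 28.5 and 15.7 CPM in WT, without overlap. Fosb rose by 1.36 ± 0.429 on the log2 scale (95% interval 0.42 to 2.31; adjusted p = 0.0413). Nr4a1 was at 26.9, 25.9 and 33.0 CPM in rIAPP and at 9.27, 23.6 and 17.4 CPM in WT. Its rIAPP libraries were all above WT, but the test was not passed (log2 fold change 0.995 ± 0.371, adjusted p = 0.0756).

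Among the other AP-1 subunits, Fos was at 204.9, 181.2 and 169.8 CPM in rIAPP and at 43.65, 107.2 and 92.98 CPM in WT, without overlap (log2 fold change 1.25 ± 0.508, adjusted p = 0.103). Atf3 was at 5.27, 4.81 and 6.61 CPM in rIAPP and at 1.70, 2.19 and 2.54 CPM in WT, again without overlap (log2 fold change 1.48 ± 0.551, adjusted p = 0.0725). The differences of Junb, Ier2, Jun, Egr1 and Dusp1 were smaller still, from 0.87 down to 0.01 on the log2 scale. Dusp1 was at 24.9, 20.0 and 25.4 CPM in rIAPP and at 16.8, 35.9 and 25.5 CPM in WT, and the 95% interval of its difference ran from −0.62 to 0.64. Over these 10 genes the spread between rIAPP libraries was the narrowest of the 5 groups, with an SD of the mean log2 CPM of 0.10, against 0.33 in hIAPP_hCAST, 0.51 in hIAPP, 0.63 in hCAST and 0.37 in WT.

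The Fosb call in rIAPP ended in 5 of the 6 fits that leave out 1 library, and the Egr2 call in 1 of them, without WT 1 (log2 fold change 1.32, adjusted p = 0.158, within 0.0013 to 0.158 over 14 alternatives). The number of genes called was 1 without rIAPP 1, 1 without rIAPP 2, 1 without rIAPP 3, 0 without WT 1, 3 without WT 2 and 1 without WT 3. The gene gained without WT 2 was Egr1 (log2 fold change 0.945, edgeR adjusted p = 0.031). In a fit of the rIAPP and WT libraries alone 6 of the 10 were called, with Junb, Atf3, Nr4a1 and Ier2 in addition, and DESeq2 called 4. Without the ribosomal-rich libraries Egr2 alone was called (log2 fold change 2.26, adjusted p = 0.0379). Stellate and pericyte markers summed to 869.2 to 988.9 CPM in rIAPP and 278.4 to 433.4 CPM in WT, and acinar markers to 60740 to 85310 CPM in rIAPP and 10170 to 46010 CPM in WT. Macrophage markers summed to 60.8 to 81.5 CPM in rIAPP and 72.7 to 105.4 CPM in WT. Endothelial markers, all 8 of those listed, summed to 791 to 814.3 CPM in rIAPP and 555.5 to 669.9 CPM in WT. With the acinar share as a covariate Egr2 alone was called (log2 fold change 1.61, adjusted p = 0.0209), and the part of stellate, pericyte and endothelial RNA was not tested.

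In the related lists, rIAPP islets had calls in both directions. These counts stand beside the 10.7% of all tested genes that rose and the 12.6% that fell. Of 5 other EGR, NR4A and NAB genes 1 rose, Nr4a2, a paralog of Nr4a1 (5.83 ± 0.560 CPM in rIAPP and 3.27 ± 0.977 CPM in WT, SD, n = 3; adjusted p = 0.00329). Of 14 other immediate-early transcription factors 2 rose, Myc (log2 fold change 1.38 ± 0.339, adjusted p = 0.00898) and Nfil3 (1.29 ± 0.397, adjusted p = 0.033). Of 8 other AP-1 and small Maf subunits 0 rose and 1 fell, Mafg, by 0.47 ± 0.104 on the log2 scale (adjusted p = 0.00377). Of 29 signalling and RNA-decay genes 4 rose and 6 fell, with Ier3 (log2 fold change 0.94 ± 0.186) and Btg1 (−1.03 ± 0.112) as examples. Of 15 phosphatases and feedback inhibitors 0 rose and 2 fell, Dusp10 (−1.47 ± 0.130) and Dusp4 (−1.62 ± 0.378). Of 23 upstream kinases and factors 1 rose, Mapk8, which encodes the kinase JNK1, and 6 fell, and of 12 heat shock genes 0 rose and 5 fell. Of the 18 called genes that the naming rule picks from these lists, 14 kept their call whichever library was left out, and 8 kept it without the ribosomal-rich libraries. Among the 4 that did not, Nfil3 kept its call in 2 of the 6 fits that leave out 1 library and Myc in 4, with adjusted p over 14 alternatives from 0.00212 to 0.206 for Nfil3 and from 0.000216 to 0.0915 for Myc.

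Set against each other, hIAPP and rIAPP gave no call among these genes. Of the 10, edgeR called 0, with 0 at an unadjusted p under 0.05, and DESeq2 called 0, while 13% of all tested genes were called. The log2 fold changes ran from −0.27 for Nr4a1 to 0.68 for Junb, with a median of 0.43 beside 0.008 over all genes. Egr2 was at 1.78, 1.79 and 2.52 CPM in hIAPP and at 1.53, 1.55 and 1.59 CPM in rIAPP. It was the only 1 of the 10 with no overlap, which 19.8% of all tested genes showed in that direction, and its 95% interval, −0.33 to 1.09, includes 0. That of Junb ran from −0.07 to 1.43 and that of Fos from −0.53 to 1.59, so more than a doubling of either in hIAPP over rIAPP is within the error. Some related genes were called, and their counts stand beside 1192 of all 15460 tested genes that rose and 817 that fell. Nr4a2 fell by 0.91 ± 0.191 on the log2 scale in hIAPP relative to rIAPP (edgeR adjusted p = 0.00354). Gadd45b, a stress-induced regulator of p38 and JNK kinases, rose by 1.13 ± 0.249 (adjusted p = 0.00865). Of the other AP-1 and small Maf subunits 1 of 8 rose, of the EGR, NR4A and NAB genes 1 of 5 fell, of the transcription factors 1 of 14 rose, and of the signalling and RNA-decay genes 5 of 29 rose. Of 15 phosphatases and feedback inhibitors 1 rose, of 23 upstream kinases and factors 2 fell, and of 12 heat shock genes edgeR and DESeq2 called 0, with 0 at an unadjusted p under 0.05. Macrophage markers summed to 288.1 to 410.5 CPM in hIAPP and 60.8 to 81.5 CPM in rIAPP.

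The hCAST comparison with WT asks what calpastatin does without human IAPP. For these genes edgeR called 0 of the 10, with 1 at an unadjusted p under 0.05, and DESeq2 called 0, where edgeR called 0.0194% of all tested genes. The log2 fold changes ran from −0.02 for Dusp1 to 1.08 for Fosb, with a median of 0.65 beside 0.009 over all genes. Fosb was at 17.2, 39.7 and 39.4 CPM in hCAST and at 10.8, 28.5 and 15.7 CPM in WT, and the groups overlapped (adjusted p = 0.642). Fos was at 71.0, 150.5 and 202.1 CPM in hCAST and at 43.65, 107.2 and 92.98 CPM in WT. In both genes hCAST 1 stood apart as the lowest hCAST library. The 95% interval of the Fos difference ran from −0.26 to 1.98 and that of Egr2 from −0.38 to 1.69. In the 7 related lists edgeR and DESeq2 called 0 genes, with up to 4 genes of a list, the heat shock list, at an unadjusted p under 0.05 in edgeR.

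Adding human CAST to human IAPP was tested by hIAPP_hCAST against hIAPP. All 10 genes had a lower fitted level in hIAPP_hCAST, by 0.11 to 0.59 on the log2 scale with a median of −0.38 beside 0.002 over all genes, but edgeR called 0, with 0 at an unadjusted p under 0.05, and DESeq2 called 0. Of all tested genes edgeR called 0.466%. The 10 genes vary together between libraries, as described below, so their shared sign is not 10 separate observations. The hIAPP 3 library was the highest hIAPP library for all 10. Their summed level was 1147 CPM there, against 687.7 CPM in hIAPP 1 and 480.8 CPM in hIAPP 2. In hIAPP_hCAST 1, 2 and 3 the sums were 524.9, 833.8 and 586.3 CPM. Fos was at 185.7, 323.6 and 224.0 CPM in hIAPP_hCAST and at 218.3, 150.4 and 435.5 CPM in hIAPP. Atf3, with the largest difference, was at 5.62, 6.60 and 2.73 CPM in hIAPP_hCAST and at 6.63, 5.25 and 10.5 CPM in hIAPP (log2 fold change −0.59 ± 0.420, 95% interval −1.51 to 0.32, adjusted p = 0.674). The groups overlapped in every one of the 10 genes, while 7.19% of all tested genes were separately higher and 8.69% separately lower in hIAPP_hCAST. The intervals leave room for a fall to a level well below that in hIAPP and, for Fos with −1.19 to 0.92, for a rise as well. Macrophage markers summed to 162.3 to 277 CPM in hIAPP_hCAST and 288.1 to 410.5 CPM in hIAPP. Stellate and pericyte markers summed to 247.6 to 580.9 CPM in hIAPP_hCAST and 833.3 to 1023 CPM in hIAPP, and endothelial markers to 458.7 to 580.3 CPM in hIAPP_hCAST and 626.5 to 659.6 CPM in hIAPP. These 3 sums were lower in every hIAPP_hCAST library than in every hIAPP library, and their part in the differences was not tested. Acinar markers overlapped, at 5882 to 86770 CPM in hIAPP_hCAST and 38710 to 85010 CPM in hIAPP. In the 7 related lists edgeR called 0 genes, with up to 5 of a list at an unadjusted p under 0.05, and DESeq2 called 2 lower, 1 each among the transcription factors and the signalling genes.

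Human IAPP on the hCAST background was tested by hIAPP_hCAST against hCAST. EdgeR called 0 of the 10, with 1 at an unadjusted p under 0.05, where it called 0.75% of all tested genes. DESeq2 called 1 of the 10, Egr2 (DESeq2 adjusted p = 0.0459), where it called 269 of all 15460. Egr2 was at 1.48, 2.26 and 1.08 CPM in hIAPP_hCAST and at 0.380, 0.677 and 0.971 CPM in hCAST. Junb was at 119.9, 181.3 and 128.9 CPM in hIAPP_hCAST and at 51.1, 96.0 and 119.7 CPM in hCAST. In these 2 genes every hIAPP_hCAST library lay above every hCAST library, as in 6.64% of all tested genes, though for both by a small margin. The log2 fold change was 1.23 ± 0.348 for Egr2 (95% interval 0.50 to 1.97; edgeR adjusted p = 0.135) and 0.69 ± 0.339 for Junb (95% interval −0.06 to 1.44; adjusted p = 0.584). Egr2 passed in edgeR without hIAPP_hCAST 3 (log2 fold change 1.46, adjusted p = 0.026) and with the acinar share as a covariate (1.27, adjusted p = 0.0377). The hIAPP_hCAST 3 library had acinar markers at 0.943% of counts outside the ribosomal-rich genes, against 6.10% and 11.9% in the other hIAPP_hCAST libraries. Macrophage markers summed to 162.3 to 277 CPM in hIAPP_hCAST and 107.5 to 114.4 CPM in hCAST, and their part was not tested. The remaining 8 genes had log2 fold changes of 0.08 to 0.79, and the median of the 10 was 0.40 beside 0.005 over all genes. In the 7 related lists edgeR and DESeq2 called 0 genes, with up to 5 of a list at an unadjusted p under 0.05 in edgeR.

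Whether the human IAPP difference itself differed between the hCAST and WT backgrounds was tested as an interaction. All 10 values were negative, from −0.39 for Dusp1 to −1.28 for Atf3, with a median of −0.96 beside −0.009 over all genes. EdgeR called 0 of the 10, with 0 at an unadjusted p under 0.05, and DESeq2 called 0. Of all tested genes edgeR called 0%, and DESeq2 called 48 genes. The Fosb value was −1.20 ± 0.557 (95% interval −2.42 to 0.03, adjusted p = 0.58) and the Egr2 value −0.998 ± 0.588 (95% interval −2.24 to 0.25, adjusted p = 0.656). The 10 genes vary together between libraries, as described next, so a shared sign among them is not 10 separate observations. In the 7 related lists edgeR and DESeq2 called 0 genes, with up to 4 of a list at an unadjusted p under 0.05 in edgeR.

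The same libraries stood high or low for most of the 10 genes. The hIAPP 3 library was the highest hIAPP library for 10 of 10 genes and the highest of all 15 for 9. Its group mates did not share this: the summed level of the 10 genes was 687.7 CPM in hIAPP 1, 480.8 in hIAPP 2 and 1147 in hIAPP 3. The hIAPP_hCAST 2 library was the highest of its group for 10 of 10 genes, with a summed level of 833.8 CPM, against 524.9 and 586.3 CPM in its group mates. At the low end, hCAST 1 was the lowest hCAST library for 10 of 10 genes, with a sum of 247.9 CPM, against 475.0 and 595.0 CPM in the other hCAST libraries. The WT 1 library was the lowest WT library for 9 genes and the lowest of all 15 for 7, with a sum of 198.0 CPM, against 429.0 CPM in WT 2 and 315.3 CPM in WT 3. Ribosomal-rich genes held 0.351% of counts in hIAPP 3, 0.361% in hIAPP_hCAST 2, 0.491% in hCAST 1 and 9.40% in WT 1. Acinar markers held 5.92% in hIAPP 3, 11.9% in hIAPP_hCAST 2, 3.99% in hCAST 1 and 6.22% in WT 1. Over all 15 libraries the acinar share ran from 0.943% to 12.1%, and its part in this pattern was not tested.

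**Figure D3:**
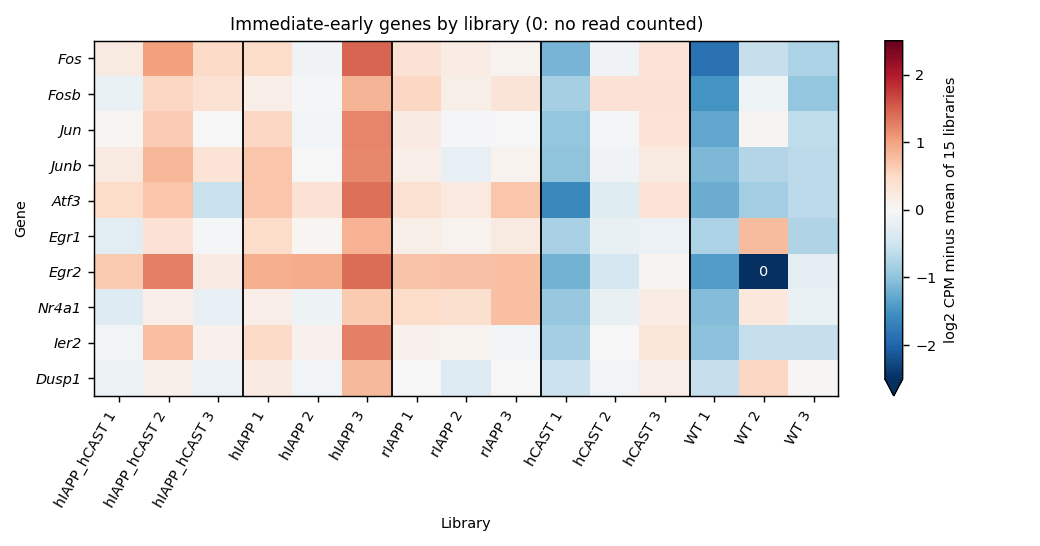
Log2 CPM of each gene (y axis) in each library (x axis) minus its mean over the 15 libraries, with colour from blue (below the mean) to red (above), and 0 marking the library in which Egr2 had no read. The columns of hIAPP 3 and hIAPP_hCAST 2 are red in nearly every gene, and those of hCAST 1 and WT 1 are blue in all 10.

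Within groups these genes varied more than most. The SD of log2 CPM around the group means ran from 0.37 for Dusp1 to 0.61 for Fos in the 9 genes other than Egr2, against a median of 0.18 over all tested genes. Dusp1 stood at the 77.1 percentile of all tested genes by this measure and Fos at 87.6. The SD of Egr2, 1.03, includes the 0 count in WT 2. The biological coefficient of variation that edgeR estimated was 0.229 for Dusp1 to 0.400 for Fos, with Egr2 at 0.259, against a median of 0.109.

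Library by library, the genes followed each other closely. Over the 45 pairs, Pearson's r of log2 CPM across the 15 libraries had a median of 0.77 and ran from 0.04, for Egr2 with Dusp1, to 0.97, for Junb with Ier2. Of deviations from the group means, which leave out the differences between groups, the median r was 0.82. The lowest values belong to pairs of Egr2, which had 0 counts in the shallow WT 2 library. Without Egr2 the 36 pairs ran from 0.47 to 0.96 in the deviations, and without the 3 ribosomal-rich libraries and WT 1, over 11 libraries, all 45 pairs ran from 0.70 to 0.99. All points share their library, so depth and scaling are common to both genes of a pair, and these values are descriptions.

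**Figure D4:**
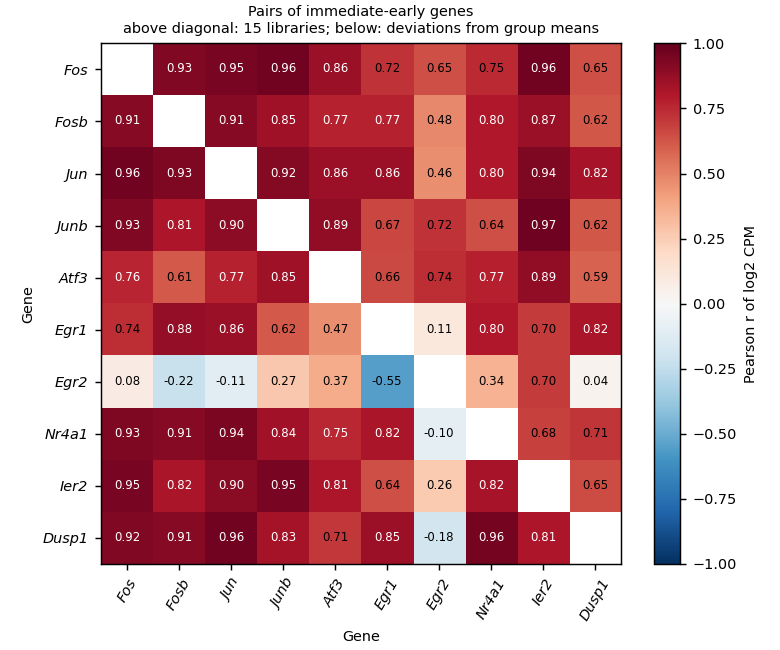
Pearson's r of log2 CPM for each pair of immediate-early genes (both axes), over the 15 libraries above the diagonal and of deviations from group means below it, with colour from −1 to 1. Most pairs are above 0.6, and the lowest values are from pairs of Egr2, down to −0.55 with Egr1 in the deviations. Other pairs of Egr2 are higher, such as 0.74 with Atf3 over the 15 libraries.

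Among 12996 other genes with a mean of at least 1 CPM, Ppp1r15a, a phosphatase subunit of the integrated stress response, was most like the mean of the 10 over the 15 libraries (r = 0.948 with the mean of their standardised log2 CPM). It averaged 46.1 CPM in hIAPP_hCAST, 53.9 in hIAPP, 42.9 in rIAPP, 34.4 in hCAST and 31.9 in WT. Socs3 followed with r = 0.931, at 35.2 CPM in hIAPP_hCAST, 39.7 in hIAPP, 23.5 in rIAPP, 18.9 in hCAST and 12 in WT. Hspa1b and Hspa1a, near-identical copies of the inducible heat shock protein gene that share reads, had r = 0.892 and 0.891, and Jund 0.886. Hspa1b averaged 49 CPM in hIAPP_hCAST, 65.4 in hIAPP, 36 in rIAPP, 36.8 in hCAST and 26.1 in WT. Klf6, Rhob and Plxnb3 completed the 8 with 0.880, 0.879 and 0.877. Within groups the deviations of Ppp1r15a and Socs3 followed those of the 10 with r = 0.928 and 0.936.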

How the data were processed

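Bulk islet RNA was measured in 15 libraries of 5 genotypes, 3 each. Per the labels, RNA was extracted with RNeasy, and libraries were made with TruSeq, Ribo-Zero and NuGEN Ovation. STAR, HTSeq and the builds GRCm38 and mm10, which are 1 assembly, stand in the submitters' processing notes, where no version is given. The annotation and the strand setting are not given in the sources used here. The deposited table holds raw read counts per symbol. The deposited FPKM table served only for gene lengths, as the ratio of depth-scaled counts to FPKM. Each column was matched to its library by title.

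The full table of counts was tested in edgeR 4.0.16 (R 4.3.3) by its quasi-likelihood test. Scaling was by TMM, the filter on low counts was filterByExpr by group, dispersions were robust, and the model had 1 term for each group over all libraries. Benjamini-Hochberg adjustment ran over the 15460 tested genes within each comparison, and a gene was called at an adjusted p below 0.05. The common biological coefficient of variation was 0.132. The SE is the size of the log2 fold change divided by the square root of F, and 95% intervals use the t distribution with the degrees of freedom of the fit. Log2 CPM used a prior count of 2. The script was tested on simulated data. DESeq2 1.42.0, other scaling and filters, left-out libraries, an acinar covariate and hCAST as control were alternatives.

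The 10 genes and all gene lists were chosen with earlier results of these data known, so no list was tested as a set. Named were the 10 genes, of each other list up to 4 called genes by smallest p, with examples from these given here, and the 8 genes most like the mean of the 10. Coordinates and overlaps of genes are from GENCODE M21 on GRCm38, and promoter sequences from RefSeq on GRCm38.p6.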

Additional observations from a re-analysis of the deposited data

How the results depend on the processing

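The direction of every called difference of the 10 genes was kept under every alternative run. Of 990 log2 fold changes of the 10 genes under alternatives, 34 had the opposite sign, 0 of them called in either fit. Counts out of the 10 genes moved as follows. For hIAPP against WT, 5 were called, against 2 without a low-count filter, 1 without the ribosomal-rich libraries, 1 with the acinar covariate, 2 with only the compared groups and 1 with hCAST in place of WT. Leaving out 1 library gave 0 to 5. For rIAPP against WT, 2 were called, against 1 without a filter, 1 without the ribosomal-rich libraries, 1 with the acinar covariate, 6 with only the compared groups, 1 with hCAST in place of WT and 4 by DESeq2. Leaving out 1 library gave 0 to 3. For hIAPP_hCAST against hCAST, 0 were called, against 1 with the acinar covariate, 1 by DESeq2 and 0 to 1 with 1 library left out. For any group difference, 2 were called, against 1 without a filter, 1 without the ribosomal-rich libraries, 1 with the acinar covariate, 5 by DESeq2 and 1 to 3 with 1 library left out.

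Counts over all tested genes moved too. With only the compared groups, 3733 were called for rIAPP against WT. DESeq2 called 2206 for hIAPP against WT, 3744 for rIAPP against WT and 4874 for any group difference. For hIAPP against WT, 1833 were called, against 383 without the ribosomal-rich libraries, 1112 with hCAST in place of WT and 995 to 1414 with 1 library left out. For rIAPP against WT, 3599 were called, against 1525 without the ribosomal-rich libraries and 2623 to 3335 with 1 left out. For hIAPP against rIAPP, 2009 were called, against 1302 to 1728 with 1 left out. For hCAST against WT, 3 were called, against 29 by DESeq2 and 3 to 4 with 1 left out. For hIAPP_hCAST against hIAPP, 72 were called, against 116 without a filter, 30 without the ribosomal-rich libraries, 125 with the acinar covariate, 2 with only the compared groups, 289 by DESeq2 and 18 to 175 with 1 left out. For hIAPP_hCAST against hCAST, 116 were called, against 53 without the ribosomal-rich libraries, 353 with the acinar covariate, 9 with only the compared groups, 269 by DESeq2 and 36 to 356 with 1 left out. For the interaction, 0 were called, against 48 by DESeq2 and 0 to 5 with 1 left out. For any group difference, 4064 were called, against 2432 without the ribosomal-rich libraries and 2893 to 5076 with 1 left out. Leaving out libraries reduces the samples of a group, and where 1 remains it is assumed to vary like the other groups. The other causes were not tested. No paired analysis was possible because the title numbers are not shared between groups. Depth limits Egr2 most, in WT 2.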
